A study of Homo sapiens with 43 samples.

Results

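HCC1954 is an established human breast cancer cell line with an amplified ERBB2 gene, which encodes the receptor tyrosine kinase HER2. Its parental cells were compared in 2 culture media, mitogen-low medium (MLM) and mitogen-rich medium (MRM), by RNA sequencing of total RNA. The comparison takes in every parental RNA library of the line, 3 from MLM and 3 from MRM, which makes 6 of the 43 samples of the series. All 6 came from subconfluent cultures kept for 48 h in their medium, and no genotype, transgene or further agent is given for them. What the media contain is not given in the sources used here. The same line was also sequenced as LCC1 and LCC2, which are latency-competent cell (LCC) derivatives, with 2 libraries per derivative and medium. Those 8 libraries enter only where the parental difference is set against theirs. Of 25369 genes in the tables, 14877 had a mean of at least 10 over the 6 parental libraries and were tested. The labels do not say whether replicates were separate cultures. If they were not, the p-values measure a technical spread between libraries only.

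Mitogens are growth factors and other signals that drive cells from the G1 phase into DNA synthesis. They do so through receptor tyrosine kinases, the RAS-ERK and PI3K-AKT pathways, D-type cyclins and the cyclin dependent kinases (CDK), whose action lifts the repression of E2F target genes. Genes of the later G2 and M phases are held down in resting cells by the DREAM complex, which binds the cell cycle homology region of their promoters, and are switched on in cycling cells by B-MYB and FOXM1. Serum also supplies lipoproteins. When cells take up less sterol, the transcription factor SREBP2 is released from the endoplasmic reticulum and activates the genes of cholesterol synthesis and sterol uptake.

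Values are normalized counts, that is reads divided by a size factor per library. Each difference is the mean of log2(value + 1) in MLM minus that in MRM, given with its standard error, and calls rest on an adjusted p under 0.05 (limma, Benjamini-Hochberg). The MLM libraries held 24852118 to 26654782 reads and the MRM libraries 32138378 to 44705518, so medium and depth moved together. MLM 3 stood apart from its group. Its log2 values correlated with those of MLM 1 and MLM 2 at 0.980, where MLM 1 and MLM 2 correlated with each other at 0.995 and the MRM libraries at 0.997, across genes. Results that rest on MLM 3 are therefore also given without it. Of the genes tested, 46.4% were called, 25.5% (3795 genes) higher in MLM and 20.9% (3114 genes) lower. Without MLM 3 the calls were 37.1% (5519 genes) higher and 31.7% (4714 genes) lower. The MLM and MRM libraries did not overlap in 60.5% of the genes tested. These shares of all genes are the ones to set beside the counts of list members and the statements of overlap below.

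The class of the counted feature moved with the medium as well. Among 121 small RNA genes the median difference was -0.96, among 372 pseudogenes it was -0.31, and among 763 long noncoding RNA genes -0.25. Over 153 members of listed readthrough pairs (a gene and a transcript that runs on into its neighbour) the median was 0.32, and over 13114 other protein coding genes 0.04. In the LCC libraries the same medians were -0.64, -0.15, -0.15, 0.17 and 0.04. Their part in the results was not tested, and the media, the depth and any difference in how the 2 tables were counted cannot be told apart. Over all genes tested the median difference was 0.02.

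**Figure D1:**
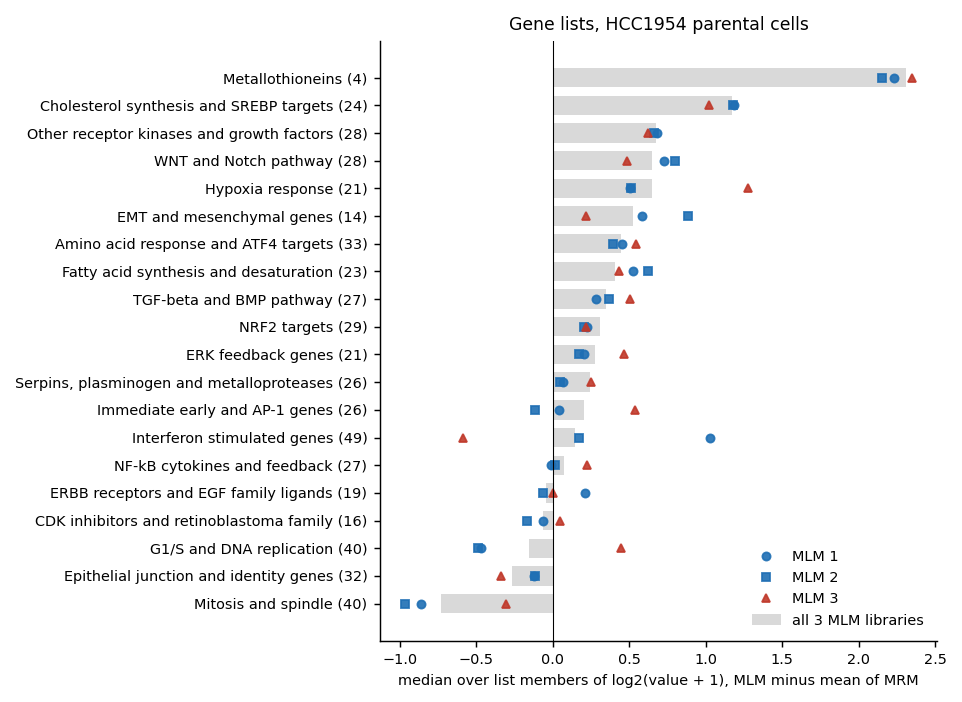
Median difference of 20 gene lists between the media in HCC1954 parental cells, on the log2(value + 1) scale, with the number of tested members in brackets. Bars use all 3 MLM libraries and the symbols show MLM 1, MLM 2 and MLM 3, each against the mean of the 3 MRM libraries; for the mitosis list the 3 libraries lie at -0.86, -0.96 and -0.31, and for the G1/S list at -0.47, -0.49 and 0.44.

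Genes of mitosis and the spindle were lower in MLM. Of 40 tested members, 30 fell, 0 rose and 10 were not called, with a median difference of -0.73, beside 20.9% of all genes called lower. Without MLM 3, all 40 were called lower, beside 31.7% of all genes, and leaving out MRM 3 left 18. The strongest in the list was NUF2, a subunit of the NDC80 complex that ties kinetochores to microtubules, with 698, 569 and 1074 in MLM and 1672, 1771 and 1932 in MRM (log2 difference -1.25 ± 0.22, adjusted p = 0.00386). Every MLM library lay below every MRM library, with MLM 3 the highest of its group. BUB1, a kinase of the spindle checkpoint, was found at 3196, 2796 and 3648 in MLM and 6939.6, 7173 and 7508 in MRM (log2 difference -1.17 ± 0.10, adjusted p = 0.000322). HMMR, a hyaluronan receptor that also acts at the spindle, had 875, 785 and 1326 in MLM and 2064, 2183 and 2288 in MRM (log2 difference -1.17 ± 0.18, adjusted p = 0.00275). In neither gene did the groups overlap, and MLM 3 was the highest of its group in both.

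The same order of libraries recurred in further members. DLGAP5, which stabilises spindle microtubules, had 1774, 1703 and 2463 in MLM and 3893, 4034 and 4119.5 in MRM (log2 difference -1.04 ± 0.14, adjusted p = 0.00144), and KIF23, a kinesin of the central spindle, had 2027, 1779.8 and 2878 in MLM and 4414, 4231 and 4512 in MRM (log2 difference -1.01 ± 0.16, adjusted p = 0.00313). NDC80, the partner of NUF2, gave 1191, 1020.0 and 1978 in MLM and 2601, 2561 and 2816 in MRM (log2 difference -0.99 ± 0.23, adjusted p = 0.0113); this call was lost without MRM 3, where its adjusted p was 0.0525. MKI67, the proliferation antigen Ki-67, stood at 6642, 6139 and 11664 in MLM and 13109.9, 12389 and 13577 in MRM (log2 difference -0.74 ± 0.23, adjusted p = 0.0335). MLM 3 held nearly as much MKI67 as the lowest MRM library, while MLM 1 and MLM 2 were far below it. The MKI67 call was lost when any of the other 5 libraries was left out, with adjusted p-values up to 0.11, and without MLM 3 the difference was -1.03 (adjusted p = 7.7e-10).

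Promoters of many mitosis genes held the letters of the element that DREAM binds. Genes of the G2 and M phases are known to carry it, so its share in this list does not bear on the media. RefSeq promoter windows of 300 bases (250 before the annotated start and 50 after it, GRCh38.p14) were found for 33 of the 40 mitosis genes, for 34 of the 40 G1/S genes described next and for 10614 of the genes tested. The letters TTTGAA, the cell cycle homology region, searched on both strands, stood in 24 of the 33 mitosis windows (72.7%), in 1 of the 34 G1/S windows (2.94%) and in 10% of all windows. Within the mitosis list the median difference was -0.73 with the letters and -0.76 without them. BUB1 had no match in its window, and the match of NUF2 lay 16 bases after the start. CCAAT, the box bound by NF-Y, stood in 25 of the 33 mitosis windows (75.8%), in 61.8% of the G1/S windows and in 36.4% of all windows. The promoters of CCNB2, PLK1 and HMMR are printed to show this element close before the start. Only the 250 bases before the start are given, 5′ to 3′ on the gene's strand, with TTTGAA in capitals. PLK1 and CCNB2 were chosen after their values were seen. PLK1, a kinase that drives entry into mitosis, had 2719.6, 2704 and 4042 in MLM and 5916, 5966 and 5454 in MRM (log2 difference -0.90 ± 0.16, adjusted p = 0.0039), and CCNB2, a B-type cyclin of CDK1, had 1834, 1704 and 2197 in MLM and 3097, 3144 and 3212 in MRM (log2 difference -0.73 ± 0.10, adjusted p = 0.00147). In HMMR the element occurs in tandem.
CCNB2, chr15:59104896-59105145, plus strand: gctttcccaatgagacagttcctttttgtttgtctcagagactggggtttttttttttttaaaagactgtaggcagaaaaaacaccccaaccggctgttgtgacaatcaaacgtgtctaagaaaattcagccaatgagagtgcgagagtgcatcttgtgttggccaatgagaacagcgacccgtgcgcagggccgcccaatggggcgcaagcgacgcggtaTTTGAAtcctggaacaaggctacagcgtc
PLK1, chr16:23678639-23678888, plus strand: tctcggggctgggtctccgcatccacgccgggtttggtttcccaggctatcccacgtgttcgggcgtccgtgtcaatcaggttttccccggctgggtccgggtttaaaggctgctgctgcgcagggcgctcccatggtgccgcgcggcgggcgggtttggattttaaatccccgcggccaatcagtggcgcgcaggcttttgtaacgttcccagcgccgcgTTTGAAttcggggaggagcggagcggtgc
HMMR, chr5:163460382-163460631, plus strand: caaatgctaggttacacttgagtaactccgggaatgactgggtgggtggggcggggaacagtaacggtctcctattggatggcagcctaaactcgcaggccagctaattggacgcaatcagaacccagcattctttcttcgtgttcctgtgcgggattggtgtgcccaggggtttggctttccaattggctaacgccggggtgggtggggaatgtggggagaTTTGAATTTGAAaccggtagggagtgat
Matches are a description of these windows and not of bound sites.

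**Figure D2:**
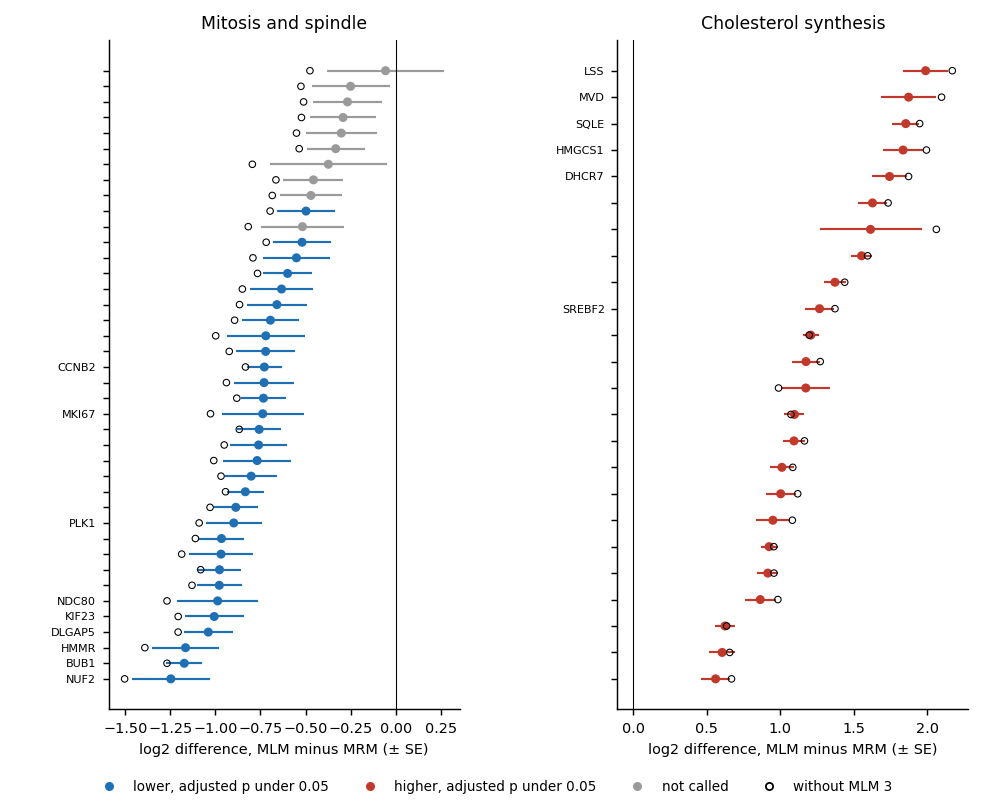
Difference between MLM and MRM in HCC1954 parental cells for each tested gene of the mitosis list (left) and of the cholesterol list (right), on the log2(value + 1) scale with its standard error. Filled points use all 6 libraries and open circles leave out MLM 3, and gene symbols are printed for those the text names or examines; all 40 mitosis genes lie below 0 and all 24 cholesterol genes above 0.

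Genes of the G1/S transition and DNA replication did not follow the mitosis genes in all libraries. Of 40 tested members, 2 fell and 0 rose, with a median difference of -0.16. Without MLM 3 the count was 35 lower and 1 higher, with a median of -0.47. The list's summed level was 92648 and 90840 in MLM 1 and MLM 2 and 179160 in MLM 3, against 120590 to 125800 in MRM, so MLM 3 lay above and the other MLM libraries below the MRM libraries. The 2 called members, named because they are the only ones, were POLE2, a subunit of DNA polymerase epsilon, and RFC3, a clamp loader subunit. POLE2 had 198, 170.2 and 297 in MLM and 379, 372 and 406 in MRM (log2 difference -0.84 ± 0.20, adjusted p = 0.0133), and RFC3 had 1383, 1195 and 1957 in MLM and 2109.8, 1986 and 2147 in MRM (log2 difference -0.49 ± 0.17, adjusted p = 0.0488). Both calls depended on single libraries: that of POLE2 was lost without MRM 3 (adjusted p = 0.0595), and that of RFC3 without any of the libraries other than MLM 3 (adjusted p up to 0.143).

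Of the cyclins between mitogen signalling and E2F, CCND1 fell and CCNE2 split by library. CCND1, cyclin D1, the partner of CDK4 and CDK6 that is induced by mitogens, stood at 42445, 40104 and 51575 in MLM and 58930.4, 58548 and 60441 in MRM (log2 difference -0.42 ± 0.10, adjusted p = 0.0158). The groups did not overlap, and leaving out MLM 1 or any MRM library ended the call (adjusted p up to 0.0671). CCNE2, cyclin E2, a partner of CDK2, had 1141, 1079.6 and 3268 in MLM and 1461, 1385 and 1601 in MRM (log2 difference 0.10 ± 0.40, adjusted p = 0.847). MLM 3 held the most CCNE2 of the 6 libraries and MLM 1 and MLM 2 the least, and without MLM 3 the difference was -0.41 (adjusted p = 7.65e-05).

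Inhibitors of cyclin dependent kinases gave the clearest rises among cell cycle regulators, although 3 of 16 tested members of their list rose and 2 fell, a share below the 25.5% of all genes called higher. Without MLM 3, 4 rose and 8 fell. CDKN2B, the CDK4 and CDK6 inhibitor p15, had 9038, 9762 and 4730.5 in MLM and 1873, 1853 and 1890.4 in MRM (log2 difference 2.00 ± 0.25, adjusted p = 0.00124). CDKN1A, the CDK inhibitor p21, had 3824, 3939 and 5216 in MLM and 1567, 1626 and 1484 in MRM (log2 difference 1.46 ± 0.12, adjusted p = 0.000306). CDKN2A, which encodes p16 and ARF, had 8109.6, 8209.8 and 6209 in MLM and 3344, 3447 and 3131 in MRM (log2 difference 1.17 ± 0.11, adjusted p = 0.000508). In all 3 genes every MLM library lay above every MRM library; MLM 3 was the highest for CDKN1A and the lowest of its group for CDKN2B and CDKN2A. CDKN2A and CDKN2B share their span with the antisense gene CDKN2B-AS1, and since the use of strand in counting is not given, reads of these genes and the antisense gene cannot be told apart.

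Among other restraints on the cycle, CDKN1B, CDKN1C and RBL2 did not pass the test. CDKN1B, the inhibitor p27, stood at 888, 943 and 824 in MLM and 900.3, 902 and 939 in MRM (log2 difference -0.05 ± 0.07, adjusted p = 0.627), with overlapping groups. CDKN1C, the inhibitor p57, had 109, 139 and 40.4 in MLM and 48.7, 36.4 and 40.0 in MRM (log2 difference 1.02 ± 0.43, adjusted p = 0.0917): MLM 1 and MLM 2 were high and MLM 3 lay among the MRM libraries, and without MLM 3 the difference was 1.55 (adjusted p = 2.95e-06). RBL2, the pocket protein p130 of the DREAM complex, had 2963, 2696 and 1935 in MLM and 2518, 2668 and 2769 in MRM (log2 difference -0.09 ± 0.15, adjusted p = 0.655). LIN9, a MuvB core subunit of the DREAM and B-MYB complexes, was lower in MLM, with 675, 679.6 and 859 in MLM and 1156, 1160.2 and 1267 in MRM (log2 difference -0.70 ± 0.11, adjusted p = 0.00259) and no overlap. CCNG1, cyclin G1, a p53 target, also fell, with 2204, 2016 and 1746 in MLM and 2761, 2787 and 3057 in MRM (log2 difference -0.53 ± 0.10, adjusted p = 0.00457).

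**Figure D3:**
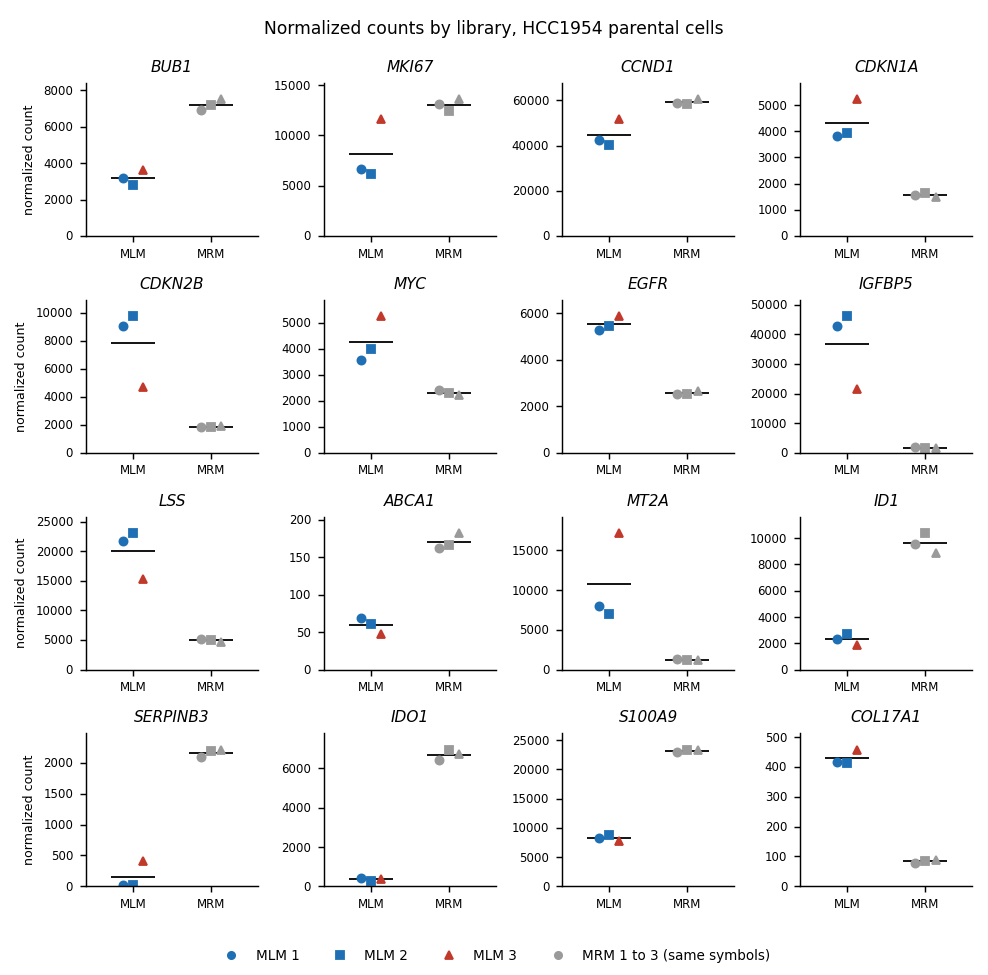
Normalized counts of 16 genes in each HCC1954 parental library; symbols tell the 3 libraries of a medium apart, MLM 3 is red, horizontal lines are means, and each vertical axis starts at 0. For IGFBP5 the MLM libraries lie at 42742, 46106 and 21664 and the MRM libraries at 1825, 1633 and 1761; for SERPINB3 MLM 3 stands above MLM 1 and MLM 2 and below the MRM libraries.

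Immediate early genes, which respond to ERK signalling within minutes, did not move one way. Of 26 tested, 8 (30.8%) rose and 4 (15.4%) fell, beside 25.5% and 20.9% of all genes, with a median of 0.20. Without MLM 3 the counts were 11 and 10, and without MRM 1, MRM 2 or MRM 3 they were 5 or 6 higher and 1 lower. MYC, a driver of cell growth, was higher in MLM, with 3568, 3991 and 5251 in MLM and 2423, 2279 and 2220.2 in MRM (log2 difference 0.87 ± 0.14, adjusted p = 0.00275) and no overlap. FOS stood at 202, 327 and 411 in MLM and 256, 301 and 261 in MRM (log2 difference 0.14 ± 0.25, adjusted p = 0.655), and its groups overlapped. EGR1, a zinc finger factor of the same early wave, had 904, 889.9 and 2749 in MLM and 1230.2, 1234 and 1216 in MRM (log2 difference 0.09 ± 0.41, adjusted p = 0.876): MLM 3 was the highest of all 6 libraries and MLM 1 and MLM 2 the lowest, and without MLM 3 the difference was -0.45 (adjusted p = 7.99e-06). The AP-1 subunits JUND and FOSL2 rose. JUND had 11112, 11849.7 and 7861 in MLM and 4159.6, 4146 and 3477 in MRM (log2 difference 1.37 ± 0.16, adjusted p = 0.000921), and FOSL2 had 3687, 4169 and 5317 in MLM and 1992, 2023 and 1843 in MRM (log2 difference 1.15 ± 0.13, adjusted p = 0.000834). ZFP36, which promotes decay of cytokine mRNAs, fell from 2671, 2894 and 2653 in MRM to 1439, 1418 and 2030.1 in MLM (log2 difference -0.77 ± 0.14, adjusted p = 0.00479). None of these 3 genes overlapped between the media.

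ERK feedback genes, whose products limit the pathway that induces them, counted 8 higher (38.1%) and 1 lower (4.76%) of 21 tested, with a median of 0.27. The shares of all genes were 25.5% and 20.9%. Without MLM 3, 11 were higher and 4 lower, and without MRM 2, 6 were higher. DUSP1, a phosphatase of MAP kinases, had 376, 417 and 619 in MLM and 164, 146 and 186 in MRM (log2 difference 1.48 ± 0.20, adjusted p = 0.0015). DUSP4, another such phosphatase, had 3876, 3735 and 2865 in MLM and 2189.6, 2227 and 2176 in MRM (log2 difference 0.66 ± 0.12, adjusted p = 0.00413). SPHK1, a sphingosine kinase induced by growth factors, had 1043, 993 and 1852 in MLM and 602, 582 and 523 in MRM (log2 difference 1.13 ± 0.23, adjusted p = 0.00733). Each of these rose without overlap. DUSP6, a phosphatase specific for ERK, stood at 1729, 1814 and 3085 in MLM and 1467, 1471 and 1570.3 in MRM (log2 difference 0.50 ± 0.21, adjusted p = 0.086) and was not called; MLM 3 was well above the other MLM libraries. ETV4, an ETS factor induced by ERK, was the member that fell, with 719, 638 and 1081 in MLM and 1412, 1479 and 1314 in MRM (log2 difference -0.82 ± 0.19, adjusted p = 0.0109).

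Receptors and ligands of the ERBB family counted 5 higher (26.3%) and 4 lower (21.1%) of 19 tested, with a median of -0.04. These shares are near the 25.5% and 20.9% of all genes. The number called higher was 2 without MLM 1 or any MRM library, 3 without MLM 2 and 7 without MLM 3. EGFR, the receptor for EGF, was higher in every MLM library than in any MRM library, with 5290.3, 5453 and 5883 in MLM and 2539, 2525 and 2649 in MRM (log2 difference 1.11 ± 0.06, adjusted p = 9.25e-05). ERBB2, the amplified HER2 gene, stood at 292444, 307479 and 198009 in MLM and 204502, 206219 and 183503 in MRM (log2 difference 0.40 ± 0.18, adjusted p = 0.101). MLM 1 and MLM 2 lay above the MRM libraries and MLM 3 within them, and without MLM 3 the difference was 0.60 (adjusted p = 5.28e-07). ERBB3, the kinase-impaired partner of HER2, had 5319, 5175 and 3989.9 in MLM and 5368, 5478 and 5396 in MRM (log2 difference -0.18 ± 0.11, adjusted p = 0.226). GRB7, an adaptor co-amplified with ERBB2, fell to 33897, 36091 and 42954 from 51127, 54151 and 47701 (log2 difference -0.44 ± 0.11, adjusted p = 0.0133), a call that was lost without MRM 1 or MRM 2 (adjusted p up to 0.0614). AREG, which encodes the EGFR ligand amphiregulin, had a mean under 10 and was not tested.

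Negative regulators of the same receptors moved apart. LRIG3, a transmembrane regulator of ERBB signalling, had 1081, 1077 and 769 in MLM and 476, 472 and 506 in MRM (log2 difference 0.99 ± 0.14, adjusted p = 0.00178). LRIG1, which promotes degradation of ERBB receptors, had 2479, 2704 and 1441 in MLM and 1362, 1361 and 1188 in MRM (log2 difference 0.71 ± 0.23, adjusted p = 0.0373), and its call did not survive leaving out any library other than MLM 3 (adjusted p up to 0.128). ERRFI1, an intracellular inhibitor of EGFR and HER2, fell, with 4465, 4359.6 and 4643 in MLM and 5935, 5926 and 6359 in MRM (log2 difference -0.44 ± 0.06, adjusted p = 0.00154). Both LRIG genes were lowest, within MLM, in MLM 3.

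Other receptor kinases, growth factors and their binding proteins were mostly higher in MLM: 18 of 28 tested (64.3%) rose and 3 (10.7%) fell, with a median of 0.67. The shares of all genes were 25.5% and 20.9%. With 1 library left out, 14 to 22 rose, fewest without an MRM library. IGFBP5, a secreted protein that binds insulin-like growth factors, had 42742, 46106 and 21664 in MLM and 1825, 1633 and 1761 in MRM (log2 difference 4.33 ± 0.27, adjusted p = 0.000119). IGFBP2, another binding protein of the family, had 404, 481 and 349 in MLM and 57.5, 57.4 and 48.3 in MRM (log2 difference 2.89 ± 0.15, adjusted p = 8.62e-05). FGF1, a fibroblast growth factor, had 201, 168 and 71.7 in MLM and 4.79, 5.74 and 7.59 in MRM (log2 difference 4.28 ± 0.40, adjusted p = 0.000433). All 3 were far higher in every MLM library than in any MRM library, and MLM 3 was the lowest of the MLM libraries. FGFR2, a receptor for fibroblast growth factors, had 916, 965 and 569.8 in MLM and 308, 316 and 291 in MRM (log2 difference 1.38 ± 0.20, adjusted p = 0.00183). IRS1, an adaptor of the insulin and IGF receptors, had 909, 1191 and 901 in MLM and 614, 589.7 and 553 in MRM (log2 difference 0.76 ± 0.12, adjusted p = 0.00286). IRS2, its relative and a FOXO target, had 172, 184 and 394 in MLM and 150.2, 146 and 127 in MRM (log2 difference 0.72 ± 0.31, adjusted p = 0.0925) and was not called; all MLM libraries lay above the MRM libraries, with MLM 3 well above the others. Among FOXO and growth-restraint targets, 10 of 28 tested (35.7%) rose and 3 (10.7%) fell, beside 25.5% and 20.9% of all genes, with a median of 0.27. The number that rose was 18 without MLM 3, 6 without MRM 1 or MRM 2 and 4 without MRM 3.

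All 24 tested genes of cholesterol synthesis and sterol uptake rose in MLM, with a median difference of 1.17, beside 25.5% of all genes called higher. The count was 24 in every fit that left out 1 library, and the smallest difference of a member was 0.56. HMGCS1, which makes HMG-CoA, had 45869, 43045 and 31938 in MLM and 11166, 10715 and 11629 in MRM (log2 difference 1.83 ± 0.14, adjusted p = 0.000218). MVD, mevalonate diphosphate decarboxylase, had 8050.0, 9139.8 and 5382 in MLM and 2123, 2071 and 1837 in MRM (log2 difference 1.87 ± 0.19, adjusted p = 0.000539). In both enzymes of the mevalonate pathway the MLM libraries all lay above the MRM libraries, with MLM 3 the lowest of them.

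The later steps gave the same picture. SQLE, the squalene epoxidase, had 23479, 22599 and 18917 in MLM and 6094, 5751 and 6082 in MRM (log2 difference 1.85 ± 0.09, adjusted p = 7.93e-05), and LSS, lanosterol synthase, had 21634, 23079 and 15327 in MLM and 5214, 5056 and 4655 in MRM (log2 difference 1.99 ± 0.15, adjusted p = 0.000228). DHCR7, which makes cholesterol in the last step, had 17447, 18821 and 13841 in MLM and 5271, 5008 and 4600.4 in MRM (log2 difference 1.74 ± 0.12, adjusted p = 0.000168). SREBF2, which encodes SREBP2, had 12322, 13193 and 10255 in MLM and 4954, 5064 and 4777 in MRM (log2 difference 1.27 ± 0.10, adjusted p = 0.000231) and was chosen after its values were seen. ABCA1, the LXR-induced pump that exports cholesterol, moved the other way, from 162, 166 and 182 in MRM to 68.6, 60.8 and 46.9 in MLM (log2 difference -1.53 ± 0.17, adjusted p = 0.000733), the only fall among 11 tested LXR and efflux genes, of which 4 rose and, without MLM 3, 8 rose and 2 fell.

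Of the cholesterol genes, 18 had a RefSeq promoter window, and 15 of these (83.3%) held CCAAT, where NF-Y cooperates with SREBP, against 36.4% of all windows. CCAAT also stood in 75.8% of the mitosis windows, 61.8% of the G1/S windows and 57.1% of those of the ATF4 targets described below. Over all windows the median difference was 0.025 with CCAAT and 0.043 without it, so the box is not particular to genes that rose. The core of the sterol response element, TCACNCCAC on either strand, stood in 1 of the 18 windows (5.56%), that of SREBF2, and in 1.06% of all windows. It is printed with the match in capitals because SREBP2 is known to act on its own gene through this element.
SREBF2, chr22:41832855-41833104, plus strand: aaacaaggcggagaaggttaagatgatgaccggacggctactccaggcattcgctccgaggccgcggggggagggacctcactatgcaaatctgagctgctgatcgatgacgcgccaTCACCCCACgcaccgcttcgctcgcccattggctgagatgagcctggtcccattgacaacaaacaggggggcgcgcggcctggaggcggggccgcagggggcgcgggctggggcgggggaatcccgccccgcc
These letters are 1 spelling of a variable element, and their absence from the other windows says only that they are not in those bases.

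Fatty acid synthesis rose in part: 15 of 23 tested genes (65.2%) were higher and 0 lower, beside 25.5% and 20.9% of all genes. The median was 0.41, and 12 to 18 were higher with 1 library left out. SCD, the desaturase that makes oleate, had 130309, 128260.5 and 81486 in MLM and 33682, 33299.7 and 34317 in MRM (log2 difference 1.72 ± 0.18, adjusted p = 0.000625). ACLY, which supplies cytosolic acetyl-CoA, had 26055, 28533 and 23574 in MLM and 15021, 14622 and 14388 in MRM (log2 difference 0.82 ± 0.08, adjusted p = 0.000531). LPIN1, a phosphatidate phosphatase and SREBP target, had 3189.7, 2936 and 3479 in MLM and 1365, 1266 and 1367 in MRM (log2 difference 1.26 ± 0.08, adjusted p = 0.000119). In each the groups did not overlap. FASN, the fatty acid synthase, stood at 67287, 74795 and 45397 in MLM and 50366, 50763 and 44875 in MRM (log2 difference 0.33 ± 0.18, adjusted p = 0.171): MLM 1 and MLM 2 were above the MRM libraries and MLM 3 among them, and without MLM 3 the difference was 0.55 (adjusted p = 2.18e-06).

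Targets of ATF4, the factor of the amino acid and integrated stress response, counted 25 higher (75.8%) and 0 lower of 33 tested, with a median of 0.45. The shares of all genes were 25.5% and 20.9%. With 1 library left out, 20 to 27 targets were higher. NUPR1, a small stress-induced chromatin protein, had 4556, 5015 and 2382 in MLM and 1272, 1307 and 1199.8 in MRM (log2 difference 1.59 ± 0.26, adjusted p = 0.00313). DDIT4, an inhibitor of mTORC1, had 10338, 11452 and 10770.0 in MLM and 3967, 4180.3 and 3863 in MRM (log2 difference 1.44 ± 0.06, adjusted p = 6.45e-05). TRIB3, a pseudokinase that feeds back on ATF4, had 9131, 9227 and 8431 in MLM and 4189, 4135 and 3840.1 in MRM (log2 difference 1.14 ± 0.07, adjusted p = 9.6e-05). The MLM libraries lay above the MRM libraries in all 3. The amino acid transporters SLC1A4 and SLC7A5 rose as well. SLC1A4 had 499, 466 and 639 in MLM and 214, 222 and 216 in MRM (log2 difference 1.28 ± 0.13, adjusted p = 0.000563), and SLC7A5 had 40023, 39622 and 46930.4 in MLM and 22983, 22066 and 21190.3 in MRM (log2 difference 0.93 ± 0.09, adjusted p = 0.000427). The unfolded protein response, which shares some of these inputs, counted 4 higher (16%) and 6 lower (24%) of 25 tested, with a median of -0.03. Without MRM 3 the counts were 2 and 2, and without MLM 3 they were 6 and 8.

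ASNS, asparagine synthetase, was chosen after its values were seen because its promoter holds the composite C/EBP-ATF site through which ATF4 is known to act. It had 3999, 3719 and 3613 in MLM and 2873, 2969 and 3084 in MRM (log2 difference 0.34 ± 0.06, adjusted p = 0.00506), a small rise without overlap. The letters TGATGNAA, on either strand, stood in 5 of the 28 windows of ATF4 targets (17.9%) and in 1.74% of all windows. The list was made of known ATF4 targets, so this share does not bear on the media. Within the list the median difference was 0.36 with the letters and 0.51 without them. The match is in capitals in the 250 bases before the ASNS start.
ASNS, chr7:97872409-97872658, minus strand: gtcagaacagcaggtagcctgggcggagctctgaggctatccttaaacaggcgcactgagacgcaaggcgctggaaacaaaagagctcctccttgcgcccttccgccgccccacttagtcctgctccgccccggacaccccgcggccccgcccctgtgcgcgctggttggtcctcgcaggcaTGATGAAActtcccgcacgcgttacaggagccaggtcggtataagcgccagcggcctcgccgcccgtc
ASNS lies on the minus strand of chromosome 7, and the letters are written along that strand.

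Hypoxia response genes counted 13 higher (61.9%) and 1 lower (4.76%) of 21 tested, beside 25.5% and 20.9% of all genes, with a median of 0.65. The number higher was 17 without MLM 3 and 8 and 7 without MRM 2 and MRM 3. MLM 3 differed here too: its median against the MRM mean was 1.27, where MLM 1 and MLM 2 gave 0.50 and 0.51. NDRG1, a stress-induced gene of the list, had 3884, 4747 and 9963 in MLM and 1511, 1501 and 1516 in MRM (log2 difference 1.91 ± 0.31, adjusted p = 0.00319), with MLM 3 well above the other MLM libraries. ALDOC, a glycolytic aldolase counted in the glycolysis list, had 1006, 1246 and 1158 in MLM and 361, 352 and 343 in MRM (log2 difference 1.68 ± 0.10, adjusted p = 9.25e-05). P4HA1, a collagen prolyl hydroxylase, had 1927, 2014 and 2846 in MLM and 973, 865 and 998 in MRM (log2 difference 1.24 ± 0.15, adjusted p = 0.00108). ANGPTL4, a secreted inhibitor of lipoprotein lipase, had 385, 401 and 209 in MLM and 71.9, 72.8 and 60.0 in MRM (log2 difference 2.21 ± 0.26, adjusted p = 0.000905). Each rose without overlap, and ANGPTL4 was lowest, within MLM, in MLM 3. Of 21 tested glycolysis genes, 5 (23.8%) rose and 0 fell, beside 25.5% and 20.9% of all genes, so the share that rose was near that of all genes. Without MLM 3, 8 rose and 6 fell, beside 37.1% and 31.7% of all genes. The summed level of the glycolysis list was 362530 and 376640 in MLM 1 and MLM 2, 598020 in MLM 3 and 374390 to 396560 in MRM.

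Of 13 listed metal response genes 4 were tested, and all 4 rose. They are 3 metallothioneins, small proteins that bind zinc and copper, and the zinc exporter SLC30A1. Those 4 passed the level filter and the others did not, so nothing is read from the share. MT2A had 8016, 6966 and 17207 in MLM and 1318, 1220.5 and 1217 in MRM (log2 difference 2.98 ± 0.31, adjusted p = 0.000619). MT1X had 622, 552 and 535 in MLM and 95.1, 77.5 and 82.1 in MRM (log2 difference 2.73 ± 0.12, adjusted p = 6.45e-05), and MT1F had 107, 114 and 125 in MLM and 51.1, 55.5 and 49.7 in MRM (log2 difference 1.13 ± 0.13, adjusted p = 0.000956). MLM 3 was far above the other libraries for MT2A and level with MLM 1 and MLM 2 for MT1X. Metallothionein genes are near-identical copies, so reads could be split among them. SLC30A1, induced by the same metal-sensing factor, had 708, 728 and 849 in MLM and 224, 198 and 194 in MRM (log2 difference 1.89 ± 0.11, adjusted p = 9.25e-05), with every MLM library above every MRM library.

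Targets of NRF2, the oxidative stress factor, counted 13 higher (44.8%) and 1 lower (3.45%) of 29 tested, with a median of 0.31. Without 1 of the MRM libraries 7 or 8 were higher. SQSTM1, the autophagy receptor p62, had 15257, 15211 and 16617 in MLM and 8489, 8037 and 7846 in MRM (log2 difference 0.95 ± 0.06, adjusted p = 0.000161). Targets of p53 counted 7 higher (38.9%) and 1 lower (5.56%) of 18, beside 25.5% and 20.9% of all genes, with a median of 0.23. The number higher was 12 without MLM 3, 6 without MLM 1 and 5 without MLM 2 or any 1 MRM library. TP53I3, an oxidoreductase induced by p53, had 1432, 1614 and 1121 in MLM and 431, 400.1 and 371 in MRM (log2 difference 1.78 ± 0.14, adjusted p = 0.000249), and MDM2, the ligase that degrades p53, was the member that fell, with 1795, 1596 and 1904 in MLM and 2315, 2339.5 and 2463 in MRM (log2 difference -0.43 ± 0.08, adjusted p = 0.00493). CYP1A1, a target of the aryl hydrocarbon receptor, had 66, 54.7 and 130.4 in MLM and 113, 101 and 99.3 in MRM (log2 difference -0.41 ± 0.31, adjusted p = 0.302), with MLM 3 above and MLM 1 and MLM 2 below the MRM libraries. ULBP1, a ligand of the NK cell receptor NKG2D, had 146, 125 and 137 in MLM and 161, 127 and 160.1 in MRM (log2 difference -0.13 ± 0.14, adjusted p = 0.477). TXNIP, an inhibitor of thioredoxin and of glucose uptake, had 6706, 5888 and 5573 in MLM and 5504, 5951 and 6153 in MRM (log2 difference 0.04 ± 0.09, adjusted p = 0.709). None of these 3 passed the test. Of 50 cytosolic ribosomal protein genes, 2 rose and 7 fell, with a median of -0.06; without MLM 3, 29 fell, and without any other library, 3.

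SERPINB3, SERPINB4, FGG and FGB were among the 12 features with the largest falls. SERPINB3, a squamous cell carcinoma antigen that inhibits proteases, had 24.6, 29.2 and 412 in MLM and 2095, 2189 and 2213 in MRM (log2 difference -4.99 ± 0.98, adjusted p = 0.00634). SERPINB4, its neighbour, had 15.5, 18.2 and 269 in MLM and 1118, 1236 and 1248 in MRM (log2 difference -4.77 ± 0.99, adjusted p = 0.00781). In both, MLM 3 was far above the other MLM libraries and still well below every MRM library, and without MLM 3 the differences were -6.28 and -6.07. The coding sequences of these genes are near-identical, so how their reads were divided is uncertain. FGG, the fibrinogen gamma chain, had 13, 19.5 and 18.3 in MLM and 357, 418 and 393 in MRM (log2 difference -4.46 ± 0.18, adjusted p = 6.45e-05). FGB, the beta chain, had 51.8, 72.9 and 82.1 in MLM and 1083, 1094 and 1009 in MRM (log2 difference -3.95 ± 0.17, adjusted p = 6.45e-05). SERPINA3, an acute phase antiprotease, had 84.2, 90.0 and 113 in MLM and 614, 701 and 569 in MRM (log2 difference -2.71 ± 0.14, adjusted p = 8.62e-05). The MLM libraries lay close together in these liver-type secreted proteins and were all far below MRM.

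IDO1, SPP1 and PLAT also lay below MRM in every MLM library. IDO1, which breaks down tryptophan, had 425, 288 and 348 in MLM and 6442, 6954 and 6719.8 in MRM (log2 difference -4.26 ± 0.13, adjusted p = 3.47e-05). SPP1, the secreted phosphoprotein osteopontin, had 60.9, 94.8 and 97.8 in MLM and 766, 850.0 and 745 in MRM (log2 difference -3.23 ± 0.19, adjusted p = 0.000106). PLAT, tissue plasminogen activator, had 2669, 3453 and 5626 in MLM and 14228, 15306 and 13947 in MRM (log2 difference -1.96 ± 0.24, adjusted p = 0.00115). For PLAT the MLM libraries were spread, with MLM 3 the highest, while for IDO1 and SPP1 they lay close together. Among serpins, plasminogen activation and metalloproteases 9 (34.6%) rose and 8 (30.8%) fell of 26 tested, with a median of 0.24. The shares of all genes were 25.5% and 20.9%.

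NF-kB cytokines and feedback genes counted 6 higher (22.2%) and 8 lower (29.6%) of 27 tested, with a median of 0.07. CCL5, a chemokine, had 333, 249 and 329 in MLM and 887, 817 and 786 in MRM (log2 difference -1.46 ± 0.13, adjusted p = 0.000368). NFKBIZ, a nuclear regulator of NF-kB target genes, had 2238, 2403 and 3261 in MLM and 5824, 5969 and 6056 in MRM (log2 difference -1.19 ± 0.14, adjusted p = 0.000828). Both fell without overlap. Keratins and squamous differentiation genes counted 9 higher (31.0%) and 8 lower (27.6%) of 29, beside 25.5% and 20.9% of all genes. Their median was 0.28. Without MLM 3 they counted 17 and 11, and 5 were higher without any 1 MRM library. KRT13, a keratin of the suprabasal layers, had 1059, 1104 and 1370.4 in MLM and 4784, 5176 and 4585 in MRM (log2 difference -2.05 ± 0.11, adjusted p = 8.62e-05). S100A8 and S100A9, counted in the NF-kB list, form calprotectin, a protein of inflamed epithelium and myeloid cells. S100A8 had 2839, 3145 and 1857 in MLM and 8346, 8178 and 8612 in MRM (log2 difference -1.72 ± 0.18, adjusted p = 0.000664), and S100A9 had 8321, 8829 and 7757 in MLM and 23026, 23366 and 23239 in MRM (log2 difference -1.49 ± 0.07, adjusted p = 6.45e-05). All 3 fell in each MLM library. Only genes that fell are printed here, and they do not stand for the 6 NF-kB and 9 keratin list members that rose.

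Genes of epithelial junctions and identity leaned lower, with 14 lower and 4 higher of 32 tested and a median of -0.27. Without MLM 3 they counted 16 lower and 8 higher, with a median of -0.12, beside 31.7% and 37.1% of all genes. Leaving out MRM 1, MRM 2 or MRM 3 left 8, 8 or 9 lower and 2 higher. CEACAM5, a membrane adhesion antigen, had 1022, 672 and 245 in MLM and 2982, 3350.4 and 2895 in MRM (log2 difference -2.47 ± 0.46, adjusted p = 0.00533). OCLN, a tight junction protein, had 1859.7, 1545 and 1484 in MLM and 3601, 3599 and 3583 in MRM (log2 difference -1.15 ± 0.09, adjusted p = 0.000256). MUC1, an apical mucin, had 11139, 11463 and 8141 in MLM and 18086, 18941 and 15892 in MRM (log2 difference -0.80 ± 0.14, adjusted p = 0.0043). The media did not overlap in any of these, and CEACAM5 and MUC1 were lowest in MLM 3.

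Of 14 tested mesenchymal genes, 7 were higher and 2 lower, beside 25.5% and 20.9% of all genes, with a median of 0.52. Without MLM 3, 11 were higher and 3 lower, beside 37.1% and 31.7%. The other 10 of 24 listed genes had means under 10, and the tested ones had passed the level filter. VIM, the intermediate filament vimentin, had 708, 751 and 1120.0 in MLM and 256, 227 and 250.4 in MRM (log2 difference 1.78 ± 0.18, adjusted p = 0.00052). SNAI2, a repressor of epithelial genes, had 1077, 1129 and 1137 in MLM and 475, 457 and 457 in MRM (log2 difference 1.27 ± 0.07, adjusted p = 8.62e-05). TNC, the matrix protein tenascin C, had 8156, 8229 and 12410.3 in MLM and 2758, 2556 and 2637 in MRM (log2 difference 1.83 ± 0.16, adjusted p = 0.000359). Each was higher in all 3 MLM libraries. COL5A1, a fibrillar collagen, had 9595, 11297 and 7622 in MLM and 2768, 2744 and 2633 in MRM (log2 difference 1.79 ± 0.13, adjusted p = 0.000224). FN1, fibronectin, fell, with 3102, 3487 and 3507 in MLM and 7994, 8089.7 and 7892 in MRM (log2 difference -1.25 ± 0.07, adjusted p = 8.62e-05). Of 24 integrin and laminin genes tested, 12 (50%) rose and 1 (4.17%) fell, with a median of 0.33. Without MLM 3, 17 rose and 5 fell, and without any 1 MRM library 11 rose. COL17A1, a hemidesmosome collagen in that list, had 416, 412 and 458 in MLM and 79.1, 86.2 and 88.3 in MRM (log2 difference 2.33 ± 0.10, adjusted p = 6.45e-05).

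In the TGF-beta and BMP pathway 13 of 27 tested genes (48.1%) rose and 4 (14.8%) fell, beside 25.5% and 20.9% of all genes. The median was 0.35, and 10 to 17 rose with 1 library left out. Among the ligands, BMP2 had 708, 642 and 725 in MLM and 323, 333 and 358 in MRM (log2 difference 1.03 ± 0.09, adjusted p = 0.000307), and BMP7 had 315, 340.4 and 133 in MLM and 81.5, 73.7 and 93.8 in MRM (log2 difference 1.54 ± 0.35, adjusted p = 0.0108). Both rose, and the BMP7 value of MLM 3 was close to those of the MRM libraries. ID1 and ID2, direct BMP targets that block differentiation factors, fell. ID1 had 2316, 2714 and 1842 in MLM and 9574, 10403 and 8874 in MRM (log2 difference -2.08 ± 0.14, adjusted p = 0.000159), and ID2 had 55.7, 75.4 and 28.7 in MLM and 199.7, 199 and 208 in MRM (log2 difference -2.01 ± 0.32, adjusted p = 0.00292). MLM 3 was the lowest library for both. THBS1, a matrix protein that activates latent TGF-beta, is not in this list and was counted with the SRF and YAP targets described below. THBS1 had 8549, 8888 and 7757 in MLM and 2246, 1986 and 2202 in MRM (log2 difference 1.97 ± 0.08, adjusted p = 6.45e-05), with all MLM libraries far above MRM.

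In the WNT and Notch pathways 17 of 28 tested genes (60.7%) rose and 3 (10.7%) fell, beside 25.5% and 20.9% of all genes. The median was 0.65, and 14 to 20 rose with 1 library left out. DLL1 and JAG2, both Notch ligands, rose. DLL1 had 524, 654 and 449 in MLM and 151, 152 and 188 in MRM (log2 difference 1.71 ± 0.16, adjusted p = 0.000451), and JAG2 had 5714, 7247 and 5192 in MLM and 3095, 2959 and 2621 in MRM (log2 difference 1.05 ± 0.13, adjusted p = 0.0011). FZD1, a WNT receptor, had 282, 325 and 362 in MLM and 109, 92.9 and 100.04 in MRM (log2 difference 1.67 ± 0.13, adjusted p = 0.000245). DKK1, a secreted WNT inhibitor, had 3182, 3031 and 3601 in MLM and 1372, 1078 and 1221 in MRM (log2 difference 1.42 ± 0.11, adjusted p = 0.000225). The media did not overlap in these 4 genes. SOX factors, regulators of cell identity, counted 4 higher and 0 lower of 10 tested, and 2 higher without MRM 1 or MRM 3. SOX12 had 1748, 1999 and 1104 in MLM and 399, 422 and 333 in MRM (log2 difference 2.03 ± 0.22, adjusted p = 0.000689), and SOX11 had 148, 196 and 141 in MLM and 64.7, 68.9 and 62.8 in MRM (log2 difference 1.27 ± 0.16, adjusted p = 0.00114). SOX2 stood at 765, 925 and 349 in MLM and 427, 417 and 382 in MRM (log2 difference 0.62 ± 0.33, adjusted p = 0.162): MLM 1 and MLM 2 were high and MLM 3 was below the MRM libraries, and without MLM 3 the difference was 1.04 (adjusted p = 1.29e-07). SOX9 had 3301, 3172 and 4174 in MLM and 3525, 3424 and 3332 in MRM (log2 difference 0.04 ± 0.11, adjusted p = 0.781), with overlapping groups.

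Hormone and retinoid related genes were mixed. Luminal breast genes counted 6 higher (31.6%) and 5 lower (26.3%) of 19 tested, beside 25.5% and 20.9% of all genes, with a median of -0.04. The number higher was 3 without any 1 library other than MLM 3, and 10 without MLM 3. PRLR, the prolactin receptor, had 1523, 1453 and 1018 in MLM and 373, 323 and 331 in MRM (log2 difference 1.94 ± 0.16, adjusted p = 0.00029), and ESR1, the oestrogen receptor, had 225, 243 and 197 in MLM and 109, 110.1 and 118 in MRM (log2 difference 0.97 ± 0.12, adjusted p = 0.00111), both without overlap. Among retinoid and vitamin D targets 3 (21.4%) rose and 5 (35.7%) fell of 14, and 3 fell without MRM 1 or MRM 2. CYP26A1, which degrades retinoic acid and is induced by it, had 40.1, 30.4 and 66.5 in MLM and 206, 223 and 188 in MRM (log2 difference -2.22 ± 0.27, adjusted p = 0.00109). BHLHE41, a repressor of the circadian clock, had 239.6, 210.3 and 352 in MLM and 844, 829 and 767 in MRM (log2 difference -1.64 ± 0.18, adjusted p = 0.000812). Both were lower in each MLM library.

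Interferon stimulated genes differed more among the MLM libraries than between the media. Of 49 tested, 6 rose and 6 fell, with a median of 0.14; without MLM 3, 34 rose and 6 fell, with a median of 0.58. Without MLM 1 the median was -0.26, and leaving out MLM 2 or any MRM library left 2 higher. The number that fell was 11 without MLM 1 and 3 without any 1 MRM library. The list's summed level was 326210, 186550 and 124830 in MLM 1, 2 and 3 and 146570 to 157660 in MRM. IFI6, an antiviral membrane protein, had 30845, 13269.7 and 7303 in MLM and 2240.0, 2316 and 2500.3 in MRM (log2 difference 2.62 ± 0.46, adjusted p = 0.00405). IFI27, another interferon-induced protein, had 25520.2, 16660.3 and 11151 in MLM and 6718, 6838 and 6353 in MRM (log2 difference 1.34 ± 0.27, adjusted p = 0.00652). ISG15, a ubiquitin-like modifier, had 9687, 3696 and 1823 in MLM and 1315, 1306 and 1423 in MRM (log2 difference 1.58 ± 0.53, adjusted p = 0.0446), and its call was lost without MLM 2 or any MRM library (adjusted p up to 0.116). In all 3 genes MLM 1 was highest and MLM 3 lowest of the MLM libraries, with MLM 3 still above MRM.

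The order was the same in IFIT1, an interferon gene that did not pass. IFIT1, which binds foreign RNA, had 8313, 3402 and 1012 in MLM and 1319, 1452 and 1847 in MRM (log2 difference 1.00 ± 0.67, adjusted p = 0.253). MLM 3 was the lowest MLM library and lay below all MRM libraries, and without it the difference was 1.803 (adjusted p = 1.33e-05). SAMD9 and SAMD9L, paralogous antiviral factors, fell. SAMD9 had 9273, 5426 and 8204 in MLM and 14597, 15026 and 17151 in MRM (log2 difference -1.06 ± 0.19, adjusted p = 0.00447), and SAMD9L had 2418, 1433 and 1206 in MLM and 3428, 3690.2 and 4292 in MRM (log2 difference -1.23 ± 0.24, adjusted p = 0.00644). Among 24 antigen presentation genes 7 (29.2%) rose and 4 (16.7%) fell, beside 25.5% and 20.9% of all genes. Without MLM 3, 13 rose and 7 fell, and without MRM 1 or MRM 3, 4 rose. HLA-B, a class I heavy chain chosen after its values were seen, had 14775, 12381 and 14113 in MLM and 6217, 6383 and 5609.8 in MRM (log2 difference 1.18 ± 0.09, adjusted p = 0.000223). The HLA-B values of the 3 MLM libraries lay close together, and the media did not overlap.

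**Figure D4:**
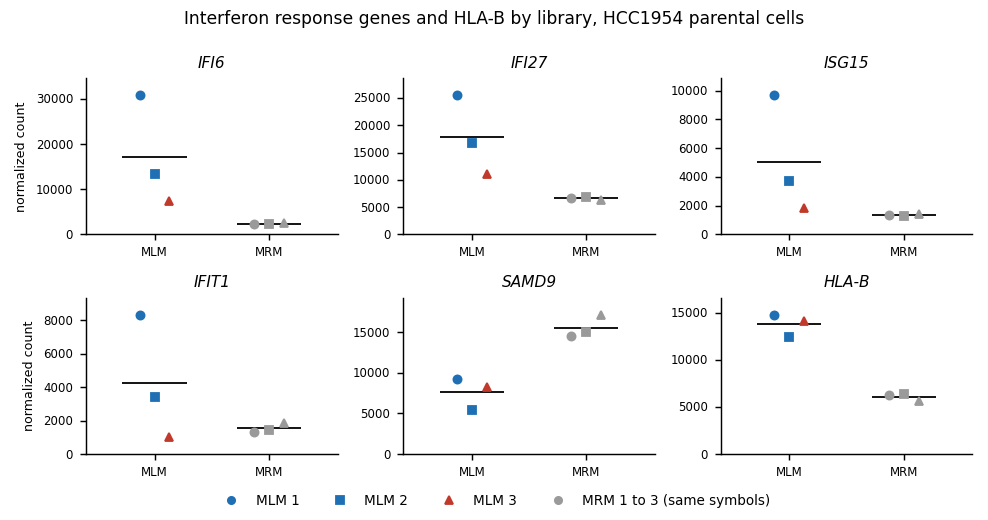
Normalized counts of 5 interferon stimulated genes and HLA-B in each HCC1954 parental library; symbols tell the libraries of a medium apart, MLM 3 is red, lines are means, and each vertical axis starts at 0. IFI6 stands at 30845, 13269.7 and 7303 in MLM 1, 2 and 3 and at 2240.0, 2316 and 2500.3 in the MRM libraries.

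The largest rises, beside IGFBP5 and MT2A, included genes with no shared role. TSPEAR had 334, 348 and 107 in MLM and 4.79, 5.74 and 2.07 in MRM (log2 difference 5.56 ± 0.52, adjusted p = 0.000433); its span holds 22 other features, among them keratin associated protein genes, so the reads may belong to neighbours. SULT1E1, which inactivates oestrogens by sulfation, had 452, 396 and 142 in MLM and 22.4, 20.1 and 20.7 in MRM (log2 difference 3.74 ± 0.41, adjusted p = 0.000762). MN1, a transcriptional coregulator, had 300.5, 388 and 156 in MLM and 18.4, 26.8 and 22.1 in MRM (log2 difference 3.51 ± 0.34, adjusted p = 0.000467). In each, MLM 3 was the lowest MLM library and far above MRM. SEPP1, the selenium carrier selenoprotein P, had 1133, 1377 and 314 in MLM and 79.1, 101 and 89.7 in MRM (log2 difference 3.12 ± 0.51, adjusted p = 0.0032). GPNMB, a glycoprotein of lysosomes and melanosomes, had 877, 967 and 382 in MLM and 98.3, 84.2 and 85.6 in MRM (log2 difference 2.93 ± 0.33, adjusted p = 0.000845). STC1, the secreted hormone stanniocalcin 1, had 255, 212 and 95.2 in MLM and 27.2, 23 and 29.7 in MRM (log2 difference 2.66 ± 0.36, adjusted p = 0.00151). The same order of MLM libraries held for these. SLITRK6, a neuronal transmembrane protein, had 456, 439 and 299 in MLM and 63.9, 51.7 and 65.5 in MRM (log2 difference 2.68 ± 0.19, adjusted p = 0.000202), and TMPRSS11E, a serine protease of squamous epithelium, had 303, 246 and 509.8 in MLM and 46.3, 45.9 and 46.2 in MRM (log2 difference 2.84 ± 0.26, adjusted p = 0.000393), with MLM 3 the lowest MLM library for SLITRK6 and the highest for TMPRSS11E.

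Large falls outside the groups above were found in TRIM31, a ubiquitin ligase, with 47.9, 34 and 37.8 in MLM and 483, 544 and 464 in MRM (log2 difference -3.62 ± 0.15, adjusted p = 6.45e-05), and in HMCN2, a hemicentin of the matrix, with 185, 145 and 58.7 in MLM and 949, 1091 and 902 in MRM (log2 difference -3.06 ± 0.39, adjusted p = 0.00121). FAM131B had 42.7, 49.8 and 24.8 in MLM and 349, 351 and 328 in MRM (log2 difference -3.16 ± 0.25, adjusted p = 0.000249). ART3, an ADP-ribosyltransferase family member, had 82.9, 85.1 and 19.6 in MLM and 379, 424 and 389.8 in MRM (log2 difference -2.91 ± 0.52, adjusted p = 0.00452), but its span includes CXCL10 and CXCL11, which are interferon-induced chemokine genes. MLM 3 was lowest in the last 3 of these 4 genes.

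Copies of other genes and members of readthrough pairs were among the largest differences. ANXA2P2, a pseudogene of ANXA2, had 15.5, 20.7 and 24.8 in MLM and 1497, 1430.1 and 1458 in MRM (log2 difference -6.12 ± 0.17, adjusted p = 3.47e-05), and UQCRHL, an intronless copy of UQCRH, had 7.77, 8.51 and 5.22 in MLM and 328, 299 and 321 in MRM (log2 difference -5.30 ± 0.20, adjusted p = 6.45e-05). RPL13AP20, a pseudogene, had 3.89, 12.2 and 13 in MLM and 260.4, 248 and 224 in MRM (log2 difference -4.66 ± 0.40, adjusted p = 0.000328), and RPSAP58 had 94.5, 106 and 142 in MLM and 1064, 1046 and 1119 in MRM (log2 difference -3.25 ± 0.15, adjusted p = 7.26e-05). UQCRHL and RPSAP58 are counted with the protein coding genes. Against this, members of readthrough pairs rose: NME2 had 733, 934 and 1019.6 in MLM and 51.9, 60.3 and 86.9 in MRM (log2 difference 3.75 ± 0.21, adjusted p = 9.25e-05), TXNDC5 had 809, 828 and 634 in MLM and 77.5, 69.9 and 45.5 in MRM (log2 difference 3.56 ± 0.22, adjusted p = 0.000115) and ATP5E had 2985, 3129 and 3162 in MLM and 285, 256 and 466 in MRM (log2 difference 3.25 ± 0.21, adjusted p = 0.000127). CHMP3 and TAX1BP3, of the same kind, differed by 3.53 ± 0.30 and 3.23 ± 0.20. In the LCC libraries ANXA2P2, UQCRHL, RPSAP58 and NME2 gave -6.32, -4.86, -3.00 and 3.33, about as large as in the parental ones. Reads of these 9 features could be shared with a copy or an overlapping transcript, which was not tested, so their values are uncertain.

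Medians over neighbouring genes were described without a test. Over windows of 25 neighbouring tested genes the median difference ran from -0.68, between ZNF701 and NLRP12 on chromosome 19, to 0.81, in the protocadherin cluster on chromosome 5. Whether genes of that cluster share reads was not tested. The 1st and 99th percentiles of the windows were -0.42 and 0.43. Windows from REXO4 to CARD9 on chromosome 9 and from RAB11FIP3 to TSR3 on chromosome 16 had medians of 0.63 and 0.62. A run of windows on chromosome 11 from CTSC to SESN3 had medians of -0.63 to -0.60.

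The labelled cell type was checked on epithelial and HER2 markers. EPCAM had 7715, 7099.8 and 7534 in MLM and 7268, 7071 and 7348 in MRM (log2 difference 0.04 ± 0.06, adjusted p = 0.571), and CDH1, E-cadherin, had 25345, 25506 and 17421 in MLM and 25821, 24516 and 25075 in MRM (log2 difference -0.17 ± 0.15, adjusted p = 0.388). KRT7 and KRT19 had differences of 0.28 ± 0.10 and -0.04 ± 0.18, and TFAP2C, a luminal transcription factor, -0.13 ± 0.06; none of these 5 was called. KRT8 rose by 0.34 and KRT18 fell by 0.33 on the log2 scale, and both calls were lost without MLM 2 or any MRM library (adjusted p up to 0.0944 and 0.0997). Several markers of other cell types were above 100 and moved with the medium. Fibroblast markers summed to 802 to 1037 in MLM and 788 to 847 in MRM, nearly all from COL1A1 and FAP, with DCN, THY1 and POSTN at 0 in all 6 libraries. Leukocyte markers summed to 573 to 1400 in MLM and 1423 to 1482 in MRM, with FCGR3A at 0, PTPRC at no more than 6.90 and CD68, a lysosomal protein, making up most of the sum. Of 3 tested leukocyte markers, LYZ and CSF1R rose and CD68 fell, and CSF1R stood at 93.2, 106 and 228 in MLM and 40.7, 36.4 and 30.4 in MRM. Without any 1 library other than MLM 3, only 1 leukocyte marker was called higher and 0 lower. Endothelial markers summed to 799 to 1190 in MLM and 934 to 985 in MRM, and 3 of 6 tested rose and 1 fell. Of these, the endothelial cadherin CDH5 stood at 817, 658 and 482 in MLM and 284, 246 and 238 in MRM, and the adhesion molecule PECAM1 at 214, 202 and 155 in MLM and 633, 619 and 609.9 in MRM. The sums were 692 to 772 in MLM and 973 to 1039 in MRM for lung alveolar markers, and 38.9 to 54.7 and 26.4 to 33.5 for kidney tubule markers. Their part in the results was not tested.

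The parental difference was then set against that of the derivatives, as the parental MLM minus MRM difference less the mean of those in LCC1 and LCC2, over 14 libraries. Of 15397 genes tested, 9.02% were called, 5.03% (774) higher in the parental cells and 3.99% (615) lower. The count of 1389 became 2351 without parental MLM 3, 664 to 751 without 1 of the parental MRM libraries and 675 with a replicate block. Without parental MLM 3 and LCC1 MRM 2 together, a pair chosen after seeing the data, it was 6212 (40.3% of the genes), with 22.6% higher and 17.8% lower. The parental cells and the derivatives have separate libraries in both media. None of 40 mitosis and 24 cholesterol genes was called with all 14 libraries. Without parental MLM 3 and LCC1 MRM 2, the median difference from the derivatives was -0.07 for the mitosis list, where it was 0.18 with all libraries. For the cholesterol list it was 0.19, where it was -0.04 with all libraries. With all libraries, BUB1 differed by -0.05 ± 0.11, adjusted p = 0.811, HMMR by 0.07 ± 0.20, adjusted p = 0.862 and LSS by 0.18 ± 0.18, adjusted p = 0.58. A p that misses the threshold does not show that the responses are alike.

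The difference between the media was higher in the parental cells for IGFBP5, IGFBP2, CDKN1A and MT2A. In their lists 5 of 28 receptor kinase and growth factor genes, 2 of 16 CDK inhibitor and retinoblastoma family genes and 3 of 4 metal response genes were called higher, and 1, 0 and 0 lower. Over all genes 5.03% were called higher and 3.99% lower, and nothing is read from the metal response share. Among other lists, 9 of 25 unfolded protein response and 7 of 32 epithelial junction genes were lower, with 0 higher in both. Of 28 WNT and Notch genes 6 were higher and 2 lower, and of 14 mesenchymal genes 5 and 1. For IGFBP5 the LCC libraries lay between 7491 and 29100.3 in MLM and between 2002 and 4245 in MRM, so the derivatives differed by 2.21 where the parental cells differed by 4.33 (difference 2.12 ± 0.31, adjusted p = 0.00269). For IGFBP2 the LCC libraries lay between 1002 and 1808 in MLM and between 300.0 and 619 in MRM (difference 1.37 ± 0.19, adjusted p = 0.00212). For CDKN1A they lay between 3335 and 7579.8 in MLM and between 2759 and 3639.5 in MRM (difference 0.81 ± 0.13, adjusted p = 0.00445). The LCC libraries held more IGFBP2 and CDKN1A in MRM than the parental ones did. MT2A stood between 7548 and 10546 in MLM and between 1389.9 and 13709 in MRM in the LCC libraries (difference 1.84 ± 0.34, adjusted p = 0.00835); here LCC1 was high in both media and LCC2 rose between them. SLC30A1 differed by 1.27 ± 0.14, adjusted p = 0.000734, and COL17A1 by 1.61 ± 0.13, adjusted p = 0.000193.

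For IDO1, FGB and SPP1 the difference between the media was lower in the parental cells. IDO1 lay between 71.9 and 604 in MLM and between 325 and 987 in MRM in the LCC libraries (difference -3.04 ± 0.46, adjusted p = 0.00326), and FGB lay between 13.5 and 24.3 in MLM and between 29.7 and 50.6 in MRM (difference -2.68 ± 0.35, adjusted p = 0.00169). For SPP1 the LCC libraries lay between 34.3 and 58.2 in MLM and between 5.47 and 173 in MRM, with LCC1 MRM 1 far above the other LCC libraries in MRM (difference -4.83 ± 1.12, adjusted p = 0.0231). That SPP1 call was lost without MLM 1 or any parental MRM library (adjusted p 0.0572 to 0.065). PLAT and CCL5 fell in the parental cells and had differences of 0.38 and 0.48 in the derivatives (difference -2.34 ± 0.33, adjusted p = 0.00242 and -1.93 ± 0.25, adjusted p = 0.00158). SAMD9 differed by -1.46 ± 0.27, adjusted p = 0.00957. The LCC libraries held less FGB and IDO1 in MRM than the parental libraries did.

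DHRS9 and TYRP1 also had a lower difference in the parental cells, and MEX3B and KAL1 a higher one. DHRS9, a retinol and steroid dehydrogenase, fell in the parental cells from 4483, 4596 and 4765 in MRM to 856, 868 and 1153 in MLM, and the LCC libraries lay between 28.4 and 608 in MLM and between 14.9 and 624 in MRM (difference -3.33 ± 0.65, adjusted p = 0.0115). TYRP1, a melanin synthesis enzyme, went from 87.9, 103 and 74.5 to 7.77, 4.86 and 2.61 in the parental cells, against values between 108 and 432 in MLM and between 32 and 332 in MRM in the derivatives (difference -4.52 ± 0.60, adjusted p = 0.00169). Among genes higher in parental MLM, MEX3B had 113, 105 and 82.1 in MLM and 12, 11.5 and 15.2 in MRM (log2 difference 2.86 ± 0.20, adjusted p = 0.000201; difference 2.51 ± 0.36, adjusted p = 0.00242), and KAL1, the matrix protein anosmin 1, had 162, 229 and 179.9 in MLM and 47.9, 50.7 and 44.8 in MRM (log2 difference 1.96 ± 0.16, adjusted p = 0.000298; difference 2.48 ± 0.23, adjusted p = 0.000345).

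**Figure D5:**
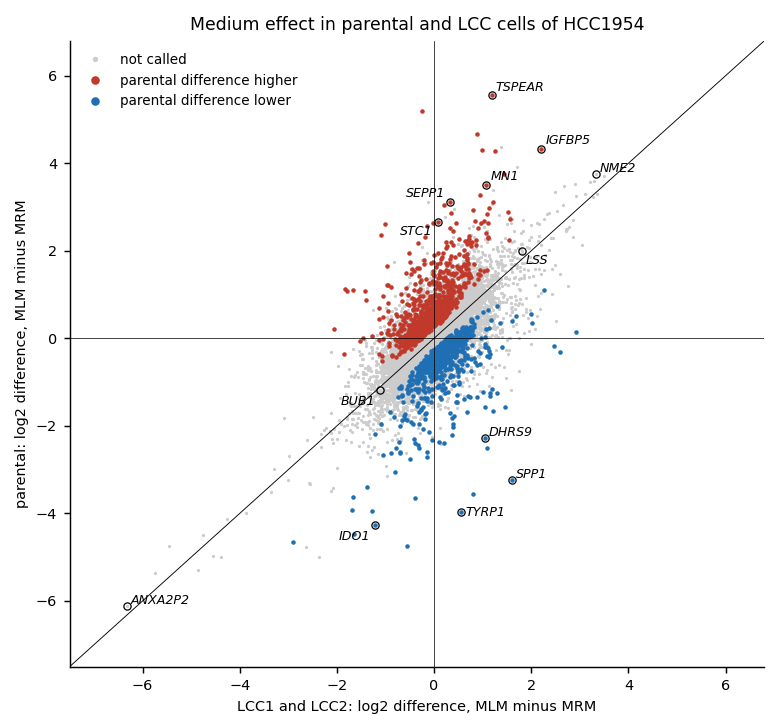
Difference between MLM and MRM (log2) in parental cells (vertical) against the mean of LCC1 and LCC2 (horizontal) for each gene tested over the 14 HCC1954 libraries; the diagonal marks equal differences. Red and blue points are the 774 and 615 genes whose parental difference was called higher or lower than that of the derivatives, and circles mark named genes; BUB1, LSS, NME2 and ANXA2P2 lie near the diagonal, and SPP1, TYRP1 and TSPEAR far from it.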

How the data were processed

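RNA sequencing libraries of HCC1954 cells were taken from the deposited tables of MLM and MRM libraries. The deposited signal values are read counts divided by a size factor per library, and multiplying back gave whole reads in 100% of the values, within 0.01 reads. Size factors recomputed over all 14 HCC1954 libraries matched those recovered to within 6.03e-10, so both tables share 1 normalization. The submitters' processing notes list DESeq2 1.8.1, HTSeq 0.6.1p1 and Bowtie2 2.2.4, and the builds hg19 and GRCh37, with no role or order; strand and multi-mapping rules are not given in the sources used here. Libraries were grouped by their titles.

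The media were compared over the 6 parental libraries on log2(value + 1) with limma 3.58.1 (R 4.3.3; trended variance, two-sided) for genes with a mean of at least 10, with Benjamini-Hochberg adjustment over all genes tested. The parental difference was compared with that of LCC1 and LCC2 by an interaction contrast over 14 libraries. Alternatives were edgeR 4.0.16 and DESeq2 1.42.0 on recovered read counts, other scalings, pseudocounts and filters, a replicate block and leaving out each parental library; the scripts were tested on simulated data. Counting intervals cover counting error only. The members and the 49 gene lists were chosen with earlier results of these data known. Named genes are the 12 per direction with the largest difference among those called with no overlap and a mean of 100 or more, up to 6 called members (mean of 50 or more) of each list with 3 or more calls, a set of focal genes, cell type markers and the 6 largest differences from the LCC cells per direction; a subset is printed, exceptions are marked, and some genes are not reported here. Symbols were matched to RefSeq (GRCh38.p14) for promoters, classes and neighbours, and no coordinate of that build was joined to the files. H2087 and chromatin samples were not analysed here.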

Additional observations from a re-analysis of the deposited data

Results flagged for a closer look

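The following genes had a difference between the media that itself differed between the parental cells and the derivatives, by the interaction test in limma over 14 libraries, with adjusted p under 0.05. Values are the parental difference minus that of the derivatives, on the log2 scale.

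Higher in the parental cells were CDKN1A (0.81 ± 0.13, adjusted p = 0.00445), IGFBP5 (2.12 ± 0.31, adjusted p = 0.00269), IGFBP2 (1.37 ± 0.19, adjusted p = 0.00212), MT2A (1.84 ± 0.34, adjusted p = 0.00835), TSPEAR (4.37 ± 0.72, adjusted p = 0.00484) and MN1 (2.44 ± 0.48, adjusted p = 0.0115). So were TMPRSS11E (1.75 ± 0.28, adjusted p = 0.00446), SLITRK6 (1.85 ± 0.22, adjusted p = 0.00107), STC1 (2.58 ± 0.52, adjusted p = 0.0125), MEX3B (2.51 ± 0.36, adjusted p = 0.00242) and KAL1 (2.48 ± 0.23, adjusted p = 0.000345). For each of these the call held in all 6 fits that left out a parental library. OLFM1, a secreted neuronal glycoprotein, had 18.1, 24.3 and 37.8 in MLM and 9.59, 14.4 and 11 in MRM in the parental cells and lay between 23.5 and 339 in MLM and between 174 and 348 in MRM in the LCC libraries (difference 2.50 ± 0.38, adjusted p = 0.00344). The calls of SULT1E1 (2.30 ± 0.57, adjusted p = 0.0304), SEPP1 (2.80 ± 0.79, adjusted p = 0.049) and GPNMB (2.13 ± 0.49, adjusted p = 0.0218) held in 1, 1 and 2 of those 6 fits. For SULT1E1 and SEPP1 the fit without MLM 3 was the one that held, at 2.82 and 3.47, and the others gave adjusted p-values of 0.0664 to 0.0799 and 0.103 to 0.116. For GPNMB the fits without MLM 3 and without MRM 1 held, and the others gave 0.0518 to 0.0629.

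Lower in the parental cells were FGB (-2.68 ± 0.35, adjusted p = 0.00169), IDO1 (-3.04 ± 0.46, adjusted p = 0.00326), TYRP1 (-4.52 ± 0.60, adjusted p = 0.00169) and DHRS9 (-3.33 ± 0.65, adjusted p = 0.0115), which held in all 6 fits, and HMCN2 (-2.26 ± 0.49, adjusted p = 0.017), which held in 5. SPP1 (-4.83 ± 1.12, adjusted p = 0.0231) held in 2 of 6. GRIK3, a glutamate receptor subunit, had 1, 0 and 0 reads in parental MLM and 15, 18 and 22 in MRM, while the LCC libraries lay between 123 and 530.4 in MLM and between 27.3 and 387 in MRM (difference -4.36 ± 0.62, adjusted p = 0.00254). Its parental MRM to MLM ratio was 34.7, with an exact 95% counting interval of 5.97 to 1394. KIAA0125 had 5, 2 and 0 reads in parental MLM and 16, 20 and 23 in MRM, while the LCC libraries lay between 30.7 and 434 in MLM and between 2.34 and 374 in MRM (difference -3.59 ± 0.94, adjusted p = 0.0385, called in 2 of 6 fits); it lies in the immunoglobulin heavy chain locus. For TYRP1, GRIK3 and KIAA0125 the LCC1 MRM 2 library lay far below LCC1 MRM 1, and without that library and parental MLM 3 the differences were -3.66, -3.62 and -2.14. What sets the LCC1 libraries apart was not tested.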

How the results depend on the processing

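With edgeR, DESeq2, scaling to library totals, TMM scaling, a pseudocount of 8, no filter, a mean of at least 100 or 14 libraries in 1 fit, between 5670 and 7180 genes were called between the media; with protein coding genes outside readthrough pairs only, an alternative chosen after seeing the data, 6145 were. Scaling to totals gave 3191 higher and 3850 lower, so the larger share turned from higher to lower. Leaving out 1 library gave 4400 to 10233 called, 2588 to 5519 higher and 1812 to 4714 lower, most without MLM 3 and fewest without MRM 3. Of the 146 called genes named, 136 to 146 kept their call when 1 library was left out, and none reversed under any alternative.

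The count of genes whose difference from the derivatives was called was 2092 with DESeq2 (1218 higher) and 664 to 2351 with 1 parental library left out (385 to 1301 higher, 279 to 1050 lower). Without parental MLM 3 and LCC1 MRM 2 together, chosen after seeing the data, it was 6212 (3476 higher, 2736 lower). The mitosis count ran from 18 to 40 lower when 1 library was left out. The G1/S count of 2 lower became 1 with edgeR or a mean of at least 100, 5 with DESeq2 or scaling to totals, 7 with 14 libraries in 1 fit and 0 to 35 with 1 library left out. The interferon count of 6 higher became 2 with scaling to totals and ran from 2 to 34 with 1 library left out.

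The replicate block left all 146 named calls in place and gave 6382 calls between the media, 4 G1/S genes lower and 675 calls for the difference from the derivatives (389 higher, 286 lower). Deviations of same-numbered libraries correlated at 0.012, 0.146 and 0.0997, and those of differently numbered MLM and MRM libraries at -0.141 to 0.0026. With 3 libraries per medium these values cannot settle whether the numbers pair the samples, and the main fit did not pair them.

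Some differences that were not called changed sign. Without MLM 3, 3 of them were called the other way: CCNE2 (-0.41, adjusted p = 7.65e-05), EGR1 (-0.45, adjusted p = 7.99e-06) and KRT19 (0.18, adjusted p = 0.0251), all from limma. Without MLM 1 the interferon list median was -0.26 and the G1/S median 0.0054. The ERBB list median was 0.20 and the serpin list median -0.00097 at a mean of at least 100. With 1 library left out, differences ran from -0.41 to 0.38 for CCNE2, -0.21 to 0.093 for RBL2, -0.080 to 0.43 for FOS, -0.45 to 0.36 for EGR1, -0.083 to 0.12 for SOX9, -0.26 to 0.017 for CDH1, -0.15 to 0.18 for KRT19, -0.094 to 0.0031 for CDKN1B and -0.034 to 0.10 for TXNIP. Scaled to totals, SOX9 gave -0.029, EPCAM -0.026 and TXNIP -0.027. The cause of these changes was not tested. Without MLM 3, 13 of the 22 named genes that were not called became called, those 3 among them. Genes near the minimum mean of 10 rest on few reads per library.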

Other observations

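Of 38 tested autophagy and lysosome genes, 17 were higher in MLM and 4 lower, beside 25.5% and 20.9% of all genes, with a median of 0.24. With 1 library left out the counts ran from 12 to 25 higher and from 2 to 7 lower, most without MLM 3. RRAGD, a Rag GTPase that signals amino acids to mTORC1 at the lysosome, had 183, 193 and 159 in MLM and 51.9, 51.7 and 72.4 in MRM (log2 difference 1.60 ± 0.17, adjusted p = 0.000714), and NEU1, a lysosomal sialidase, had 3304, 3262 and 2665 in MLM and 1669.6, 1586 and 1545 in MRM (log2 difference 0.94 ± 0.09, adjusted p = 0.000561). CTSS, the antigen-processing protease cathepsin S, fell, with 2415, 1804 and 1828 in MLM and 3448, 3469 and 3430.3 in MRM (log2 difference -0.79 ± 0.11, adjusted p = 0.00202). Histone genes counted 7 higher (50%) and 1 lower (7.14%) of 14 tested, and 4 were higher without MLM 1 or any MRM library. HIST3H2A had 954, 1043 and 824 in MLM and 606, 620.3 and 538 in MRM (log2 difference 0.67 ± 0.11, adjusted p = 0.00293), while H1F0, a linker histone of differentiated cells, was the one that fell, with 6113, 5688 and 5952 in MLM and 11075, 10807 and 10846 in MRM (log2 difference -0.88 ± 0.06, adjusted p = 0.000119). In each of these genes the media did not overlap.

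Targets of SRF and YAP, which respond to the actin cytoskeleton and cell contact, counted 10 higher (33.3%) and 5 lower (16.7%) of 30 tested. The shares of all genes were 25.5% and 20.9%, and 2 targets were lower without any 1 MRM library. AJUBA, a LIM protein of cell junctions, had 10189, 11256 and 8608 in MLM and 4169, 4075 and 4101 in MRM (log2 difference 1.27 ± 0.10, adjusted p = 0.000238), and TPM4, an actin-binding tropomyosin, had 11465, 11053 and 9912 in MLM and 17671, 17818 and 18821 in MRM (log2 difference -0.75 ± 0.07, adjusted p = 0.000518). Heat shock genes counted 7 higher (29.2%) and 5 lower (20.8%) of 24, near the shares of all genes. Of them, 12 were lower without MLM 3 and 2 without any other single library. HSPB8, a small heat shock protein, had 539, 559 and 589 in MLM and 193, 183 and 186 in MRM (log2 difference 1.58 ± 0.08, adjusted p = 8.62e-05), and HSF2, a heat shock factor, had 256, 221 and 299.9 in MLM and 426, 401 and 415 in MRM (log2 difference -0.68 ± 0.12, adjusted p = 0.00461). Among clock genes, 4 (22.2%) rose and 4 (22.2%) fell of 18 tested, near the shares of all genes, and 0 rose without any 1 MRM library. CLOCK had 2869.8, 2636 and 3390.1 in MLM and 4650.1, 4771 and 5129.6 in MRM (log2 difference -0.72 ± 0.10, adjusted p = 0.00171), and NPAS2, its paralogue, had 1189, 984 and 1479 in MLM and 1935, 1900.1 and 1818 in MRM (log2 difference -0.65 ± 0.14, adjusted p = 0.00909). Of 39 oxidative phosphorylation genes, 12 (30.8%) rose and 5 (12.8%) fell, which is near the share of all genes for those that rose. With 1 library left out the counts ran from 8 to 17 and from 2 to 8, most without MLM 3. NDUFA8, a complex I subunit, rose, with 2222, 2123 and 2088 in MLM and 1471, 1422 and 1363 in MRM (log2 difference 0.60 ± 0.06, adjusted p = 0.000602). ULBP3, an NKG2D ligand, had 146, 165 and 156 in MLM and 87.1, 81.4 and 88.3 in MRM (log2 difference 0.86 ± 0.12, adjusted p = 0.00152). No value of MLM overlapped one of MRM in these genes.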
